A study of Mus musculus with 6 samples.

Results

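The cytochrome P450 genes of families 1 to 4 were followed across 6 RNA-seq libraries from the intestinal epithelium of mice. They were taken as every row of the count table whose symbol names a gene of these families, which gave 80 of 23845 genes; symbols ending in -ps, which mark pseudogenes, and Cyp2ab1 fall outside the rule. The libraries form 3 groups of 2. EYFP cells were flow-sorted by their reporter; their genotype is given as Neurog3+/+EYFP, with 2 alleles of Neurog3, on a mixed background of C57BL6 and CD1. EGFP cells were flow-sorted likewise, from C57BL6 mice of the genotype Neurog3+/-EGFP, with 1 allele. Wild-type (WT) libraries came from intestinal epithelial cells of C57BL6 mice without a reporter in their label, and their titles point to duodenum. Progenitors of the gut epithelium become hormone-secreting enteroendocrine cells under the transcription factor Neurog3, and the series asks how its dose affects their differentiation. The sources used here give neither age nor sorting gates, nor whether a group's libraries came from separate animals, so p-values measure only the spread between these libraries.

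Cytochromes P450 are heme enzymes of the endoplasmic reticulum that insert 1 oxygen atom into a substrate, with electrons handed over by the reductase Por. Families 1 to 3 act mostly on drugs, dietary compounds and steroids, and several of their genes are switched on by ligand-sensing factors, the aryl hydrocarbon receptor (Ahr) for Cyp1a1, the receptor CAR (Nr1i3) for Cyp2b10 and the receptor PXR (Nr1i2) for Cyp3a11. Members of families 2 and 4 also oxidize arachidonic acid and other fatty acids. In the small intestine the best-known site of these enzymes is the absorptive enterocyte, where they meet drugs and food compounds before the liver does.

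All P450s hold the heme iron by a cysteine in a conserved loop near the end of the protein. A search of the longest open reading frame of each member for this loop (phenylalanine, 2 residues, glycine, 3 residues, cysteine, 1 residue, glycine) found it once in 76 of the 78 members with a matched transcript, and in neither Cyp2s1 nor Cyp3a59. The 30 bases that code for it are shown for 7 members that the results turn on, 5′ to 3′ from GENCODE transcripts of GRCm38, with the cysteine codon in capitals, to show how far the families differ even at their most conserved site.
Cyp1a1: tttggtttgggcaagcgaaagTGCatcgga
Cyp2b10: ttctcaacaggaaagcgcattTGTcttggt
Cyp2c65: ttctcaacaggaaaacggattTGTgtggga
Cyp2d26: ttctcagcaggccgcagatcaTGCctgggg
Cyp3a11: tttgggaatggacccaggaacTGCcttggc
Cyp4b1: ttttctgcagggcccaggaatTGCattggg
Cyp4f14: ttctcggcgggacccaggaacTGCatagga

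The same 30 bases of Cyp2c66 are identical to those of Cyp2c65. Sequencing reads were 50 bases long, so the share of a member's 50-base windows that also occur in a transcript of another gene was taken. Such windows give reads that no method can assign by sequence. Only exact matches were counted, so reads that differ from another gene by a few bases may have been divided as well. Of the 36 tested members with a matched transcript, 23 shared under 10% of their windows, and 1, Cyp2c67, shared over 50%. Cyp2c67 shared 52.8% of its windows, Cyp2c68 43.3%, Cyp4a32 46.8%, Cyp2d10 40.5%, Cyp4a10 30.5%, Cyp3a25 28.6%, Cyp4f16 25.8%, Cyp2c66 24%, Cyp4f37 21.7% and Cyp2c65 20.6%. These shares are not errors of the levels, and how far the division of shared reads moved the values was not tested. Cyp3a11 shared 14.8%, Cyp2d26 10.5%, Cyp4b1 10.3%, Cyp2b10 9.69%, Cyp4f14 2.46%, Cyp2c55 0.514% and Cyp3a13 0%. The coding sequences of Cyp2c67 and Cyp2c68, of 1476 bases each, were 97.15% identical, with 42 differences. An identical window (coding bases 97 to 146) and the window with the most differences, 7 of 50 (bases 1047 to 1096, differing bases in capitals), show where a read can and cannot tell the pair apart.
Cyp2c67 and Cyp2c68, identical: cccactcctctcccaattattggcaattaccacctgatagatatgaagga
Cyp2c67: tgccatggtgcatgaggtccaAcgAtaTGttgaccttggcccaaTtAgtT
Cyp2c68: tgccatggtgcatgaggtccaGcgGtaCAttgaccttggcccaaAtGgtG

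Total counts per library ranged from 7938358 to 20589683, and values below are CPM, counts scaled to a common library total, where 10 counts correspond to 0.603 to 1.21 CPM. In sum the members reached 1045 and 1116 CPM in EYFP cells, 517 and 716 CPM in EGFP cells, and 5891 and 7071 CPM in WT epithelium. The low-count filter, applied over all genes, kept 37 of the 80 members; of the other 43, 13 had 0 counts in all 6 libraries and none passed 2.04 CPM in any library. The summed level of 12 enterocyte markers was 1465 and 2434 CPM in EYFP cells, 1532 and 2007 CPM in EGFP cells, and 34239 and 57163 CPM in WT, while 8 enteroendocrine markers summed to 60318 and 45583 CPM in EYFP, 9013 and 13535 CPM in EGFP, and 512 and 579 CPM in WT. Goblet markers, 7 in number, summed to 688 and 1803 CPM in EYFP, 60885 and 100430 CPM in EGFP, and 5379 and 6973 CPM in WT. Paneth markers, 6 in number, summed to 586 and 312 CPM in EYFP, 10963 and 13058 CPM in EGFP, and 10767 and 16733 CPM in WT. Hepatocyte markers, 4 in number, summed to 116 and 181 CPM in EYFP, 57.2 and 80.7 CPM in EGFP, and 9.40 and 7.56 CPM in WT, most of it from Ttr and Alb. Immune markers, 5 in number, summed to 214 and 4.89 CPM in EYFP, 3.16 and 36.4 CPM in EGFP, and 113 and 138 CPM in WT. Lyz2 made up most of this sum in EYFP replicate 1 (206 CPM) and EGFP replicate 2 (29.3 CPM), against 2.58 and 2.66 CPM in WT. The T cell marker Cd3e reached at most 0.422 CPM in a reporter library, against 11.7 and 18.4 CPM in WT. For 6 tuft markers the sums were 5.07 and 13.9 CPM in EYFP, 187 and 109 CPM in EGFP, and 21.4 and 94.2 CPM in WT. For 4 crypt stem markers they were 488 and 503 CPM in EYFP, 1246 and 1012 CPM in EGFP, and 1535.5 and 952 CPM in WT. These levels differ between groups, and their part in the P450 results was not tested; in bulk RNA, fewer cells of a type and less RNA per cell cannot be told apart. Xist RNA, which coats the silent X chromosome in female cells, measured 0.606 and 2.38 CPM in EYFP, 966 and 969 CPM in EGFP, and 1.15 and 726 CPM in WT. Ddx3y, a gene of the Y chromosome, measured 37.3 and 39.3 CPM in EYFP, 0 and 0 CPM in EGFP, and 62.4 and 0.101 CPM in WT. By these marks EYFP libraries and WT replicate 1 had a male pattern, and EGFP libraries and WT replicate 2 a female pattern. EYFP and EGFP cells thus differ in sex marks as well as in strain, reporter and Neurog3 dose, which cannot be told apart.

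More of the tested P450 transcripts were lower than higher in reporter cells when set against WT epithelium. In EYFP cells, 23 of the 37 tested members were lower than in WT and 6 higher, where 33.5% of all 13935 tested genes were lower and 27.1% higher. In EGFP cells, 24 were lower than in WT and 2 higher, where 21.9% of all genes were lower and 19.6% higher. The median log2 fold change of the tested members was -2.05 for EYFP over WT, beside -0.12 for all tested genes, and -2.35 for EGFP over WT, beside 0.003 for all. These 2 comparisons share the WT libraries. Between the reporter cells, 9 members were higher in EYFP than in EGFP and 2 were lower, where 16.8% of all genes were higher and 19.4% lower, and the median was 0.39 against 0.01 for all genes. A member passes when edgeR's adjusted p is under 0.05; 6 of the 37 passed in no comparison, namely Cyp2c70, Cyp2d10, Cyp2j9, Cyp2r1, Cyp2u1 and Cyp4f17.

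**Figure D1:**
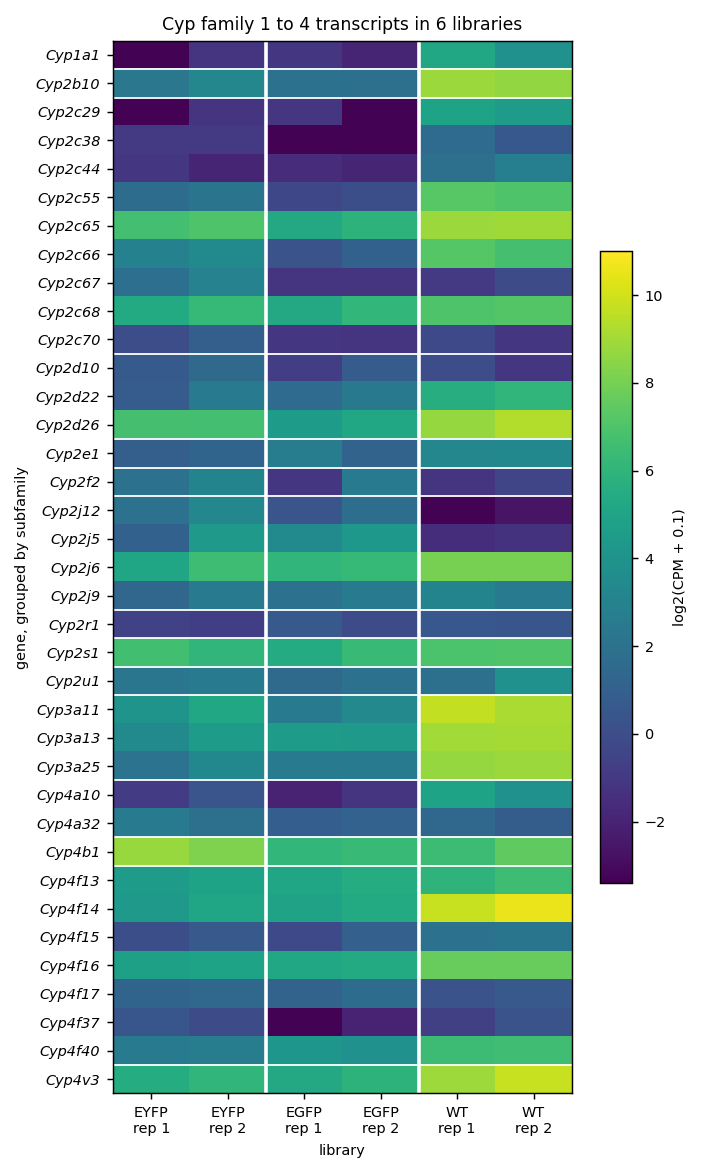
Level of the 37 tested members in each library as log2(CPM + 0.1), colour scale at the right, with rows grouped by subfamily and columns by group. Most rows are brightest in the 2 WT columns, whereas Cyp4b1 is brightest in EYFP and Cyp2j5 and Cyp2j12 are darkest in WT.

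The set of abundant P450s also differed. Per kilobase of transcript, the scale on which levels of different genes can be compared, the first 8 members held 82.1% of the summed level of the 78 matched members in EYFP cells, 71.4% in EGFP cells and 76.6% in WT. In EYFP cells Cyp4b1 led with 195 CPM per kb, 37.3% of the sum, followed by Cyp2d26 at 62.4 and Cyp2c65 at 59.99 CPM per kb. In EGFP cells Cyp4b1 also led, with 39.7 CPM per kb (14.3% of the sum), close to Cyp2c68 at 31.7 and Cyp2c65 at 25.9 CPM per kb. In WT Cyp4f14 led with 561 CPM per kb, 19.3% of the sum, followed by Cyp2d26 at 312, Cyp3a11 at 295, Cyp2c65 at 248, Cyp2b10 at 225 and Cyp3a25 at 224 CPM per kb.

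Cyp1a1, which oxidizes polycyclic aromatic hydrocarbons, lies on chromosome 9 from 57687928 to 57703824 (mm10). It stood at 0 and 0.336 CPM in EYFP cells, 0.362 and 0.169 CPM in EGFP cells, and 38.2 and 14.4 CPM in WT. It was thus near 0 in all 4 reporter libraries, and WT replicate 1 was above WT replicate 2. Its log2 fold change was -7.31 ± 0.92 (SE) for EYFP over WT (edgeR adjusted p = 0.00069) and -6.65 ± 0.89 for EGFP over WT (adjusted p = 0.0016). Without WT replicate 1 these were -6.45 and -5.78; leaving out EYFP replicate 1 gave -6.24 for the first, and without EYFP replicate 2, where EYFP had 0 counts, it was at least 115-fold lower from a floor of 3 counts. Bounds and intervals of this kind cover counting error only. Cyp1a2, its neighbour, had at most 4.13 counts in any library and Cyp1b1 at most 1, so neither was tested.

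The 300-base windows from 250 bases before to 50 after the start site are printed for Cyp1a1, Cyp2b10 and Cyp3a11, which are textbook targets of 3 different sensors and were lower together in the reporter cells, and for Cyp4b1, which went the other way in EYFP cells (RefSeq, GRCm38.p6, 5′ to 3′ on the gene's strand). Capitals mark matches, on either strand, to GCGTG (the core bound by Ahr), to the TATA box TATAAA, to AGGTCA (the core of nuclear receptor sites), to the CCAAT box, or to GTTAAT (part of the site of the factor Hnf1). The Cyp1a1 window, chr9:57697363-57697662 on the plus strand, holds GCGTG from base 197 and TATAAA from base 221, with the start site at base 251. The Cyp2b10 window is chr7:25897408-25897707 (plus strand), the Cyp3a11 window chr5:145879805-145880104 (minus strand) and the Cyp4b1 window chr4:115647672-115647971 (minus strand).
Cyp1a1: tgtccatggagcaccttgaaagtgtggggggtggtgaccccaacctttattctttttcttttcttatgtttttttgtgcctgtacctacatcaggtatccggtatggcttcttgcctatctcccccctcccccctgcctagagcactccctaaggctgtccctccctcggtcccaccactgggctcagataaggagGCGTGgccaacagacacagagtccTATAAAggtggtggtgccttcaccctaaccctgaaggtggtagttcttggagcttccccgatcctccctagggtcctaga
Cyp2b10: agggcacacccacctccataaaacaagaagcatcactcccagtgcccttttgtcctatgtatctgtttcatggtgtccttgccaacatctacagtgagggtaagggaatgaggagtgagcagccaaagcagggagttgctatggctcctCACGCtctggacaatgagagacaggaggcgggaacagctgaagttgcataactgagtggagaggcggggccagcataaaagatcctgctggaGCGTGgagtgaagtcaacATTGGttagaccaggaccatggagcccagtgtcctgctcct
Cyp3a11: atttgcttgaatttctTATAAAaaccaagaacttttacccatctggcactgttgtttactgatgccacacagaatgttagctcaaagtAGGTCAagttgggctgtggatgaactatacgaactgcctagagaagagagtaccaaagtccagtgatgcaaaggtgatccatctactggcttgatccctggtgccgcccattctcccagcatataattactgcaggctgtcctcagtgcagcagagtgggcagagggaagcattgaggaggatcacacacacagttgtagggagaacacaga
Cyp4b1: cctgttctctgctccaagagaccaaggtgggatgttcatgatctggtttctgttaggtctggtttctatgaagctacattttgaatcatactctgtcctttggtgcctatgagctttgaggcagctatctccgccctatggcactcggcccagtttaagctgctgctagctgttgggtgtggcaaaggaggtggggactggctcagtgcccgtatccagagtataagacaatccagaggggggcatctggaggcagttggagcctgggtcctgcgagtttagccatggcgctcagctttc

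Among 72 promoter windows of 65 members, 40.3% held TATAAA, against 13.6% of all 32851 windows; 27.8% held AGGTCA (16.3% of all), 45.8% CCAAT (37.4% of all), 13.9% GTTAAT (7.1% of all) and 19.4% GCGTG (32.4% of all). These are matches of letters, counted over windows that overlap for genes with several start sites and over members that descend from common copies, and say nothing about binding.

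Cyp2b10, which oxidizes many drugs, lies on chromosome 7 from 25897658 to 25926624. It stood at 4.88 and 9.48 CPM in EYFP cells, 3.86 and 3.71 CPM in EGFP cells, and 456 and 405 CPM in WT. All 4 reporter libraries were far below WT, and both EYFP libraries were above both EGFP libraries. Its log2 fold change was -5.92 ± 0.32 for EYFP over WT (adjusted p = 1.1e-05) and -6.83 ± 0.34 for EGFP over WT (adjusted p = 2.8e-05). EYFP over EGFP was 0.91 ± 0.32 and did not pass (adjusted p = 0.062), though it did in the DESeq2 Wald test (0.99, adjusted p = 0.0161). The other 4 Cyp2b genes had at most 5.77 counts in any library.

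Cyp3a genes, whose products metabolize a wide range of drugs and steroids, were among the subfamilies with the highest sums in WT. The 9 genes together reached 31.4 and 69.1 CPM in EYFP, 35.3 and 37.0 CPM in EGFP, and 1743 and 1572 CPM in WT, so the WT mean was 33.0-fold that of EYFP and 45.8-fold that of EGFP. Such sums do not depend on how reads are divided within the subfamily, and carry no test. Cyp3a11, the main PXR target of the mouse (chromosome 5 from 145854607 to 145879854), stood at 16.3 and 36.4 CPM in EYFP, 5.87 and 10.3 CPM in EGFP, and 815 and 569 CPM in WT. The 3 groups did not overlap. It fell by 4.72 ± 0.49 on the log2 scale for EYFP over WT (adjusted p = 0.00035; -5.41 without EYFP replicate 2) and by 6.39 ± 0.54 for EGFP over WT (adjusted p = 0.00031). Cyp3a11 was 1.67 ± 0.47 higher in EYFP than in EGFP (adjusted p = 0.035). That call no longer passed without EYFP replicate 2 (0.98, adjusted p = 0.11), EGFP replicate 1 (0.17) or 2 (0.06), or WT replicate 1 (0.07) or 2 (0.066), and also without the low-count filter (0.125). EYFP replicate 2 is the library of the pair with the higher enterocyte marker sum, and the part of those cells in the value was not tested.

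Cyp3a13 and Cyp3a25 followed the same order against WT but not between the reporter cells. Cyp3a13, which shares no 50-base window with another gene, stood at 10.6 and 22.4 CPM in EYFP, 23.5 and 20.4 CPM in EGFP, and 509 and 540.0 CPM in WT. Cyp3a25 stood at 4.10 and 9.97 CPM in EYFP, 5.43 and 5.88 CPM in EGFP, and 419 and 459 CPM in WT. For both, the EYFP libraries bracketed one or both EGFP libraries. Against WT, Cyp3a13 had a log2 fold change of -5.00 ± 0.36 in EYFP (-5.63 without EYFP replicate 2) and -4.58 ± 0.35 in EGFP, and Cyp3a25 of -5.98 ± 0.41 in EYFP (-6.75 without EYFP replicate 2) and -6.27 ± 0.43 in EGFP, all with adjusted p under 0.05. Between EYFP and EGFP the values were -0.41 ± 0.32 and 0.29 ± 0.40, and did not pass (adjusted p = 0.36 and 0.6). Cyp3a44, known as a female-predominant gene of mouse liver, was too low to test, with 3.4 and 33.8 counts in WT replicates 1 and 2, and at most 3.16 in a reporter library. Xist was high in WT replicate 2 and low in WT replicate 1, but it was also high in both EGFP libraries, which had 1.83 and 3.16 counts of Cyp3a44; the part of sex in this split was not tested.

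**Figure D2:**
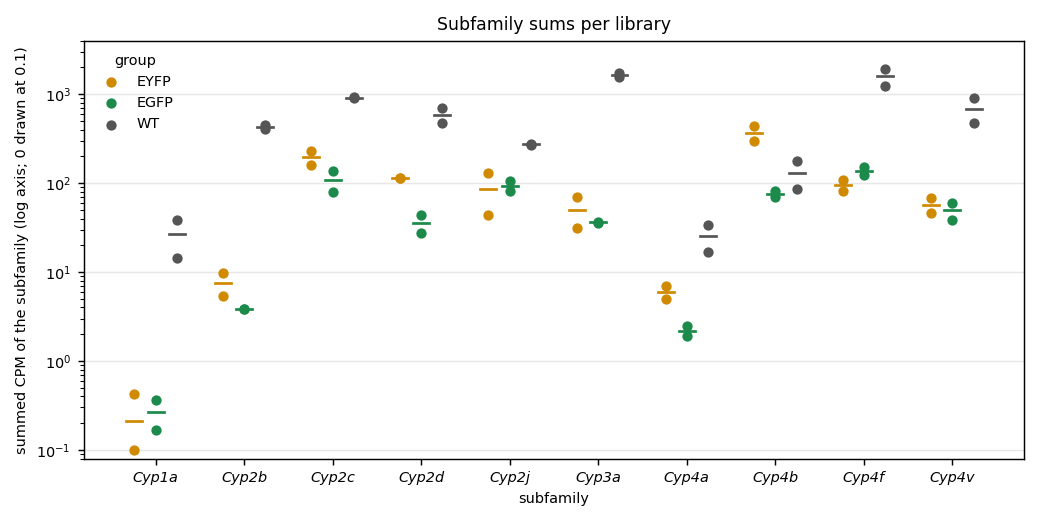
Summed CPM of 10 subfamilies in each library on a log axis, points for libraries and bars for the mean of the 2, with EYFP left, EGFP in the middle and WT right. The WT points of Cyp1a, Cyp2b, Cyp2c, Cyp2d, Cyp2j, Cyp3a, Cyp4a, Cyp4f and Cyp4v lie above all reporter points. For Cyp4b the EYFP points (443 and 296) lie above all others.

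The Cyp2c genes are a cluster on chromosome 19 whose products oxidize drugs and arachidonic acid. They held 9 of the 37 tested members, and 5 of the 9 members that were higher in EYFP than in EGFP cells. Of all tested genes, 16.8% were higher in EYFP than in EGFP. The 15 genes summed to 161 and 229 CPM in EYFP, 80.5 and 136 CPM in EGFP, and 925 and 913 CPM in WT. Cyp2c65 (39061006 to 39093948) stood at 102 and 129 CPM in EYFP, 39.0 and 61.0 CPM in EGFP, and 457 and 500 CPM in WT. Its neighbour Cyp2c66 (39113898 to 39186756) stood at 7.5 and 10.5 CPM in EYFP, 1.12 and 2.0 CPM in EGFP, and 146 and 108 CPM in WT. Cyp2c55, which makes hydroxylated products of arachidonic acid (39006940 to 39042690), stood at 3.17 and 4.29 CPM in EYFP, 0.723 and 0.929 CPM in EGFP, and 153 and 129 CPM in WT. These 3 adjacent genes had the same order, with WT highest, EYFP between and EGFP lowest, and no overlap between groups. Cyp2c66 shared 24% of its windows with the more abundant Cyp2c65, and Cyp2c65 20.2% with Cyp2c66. The part of divided reads in their values was not tested.

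For EYFP over EGFP the log2 fold change was 1.21 ± 0.23 for Cyp2c65 (adjusted p = 0.0066), 2.47 ± 0.34 for Cyp2c66 (adjusted p = 0.0018) and 2.13 ± 0.29 for Cyp2c55 (adjusted p = 0.0016). These 3 calls held in every alternative and with each library left out. Against WT, the log2 fold change of Cyp2c65 was -2.05 ± 0.23 in EYFP and -3.25 ± 0.25 in EGFP. Cyp2c66 had -3.82 ± 0.27 in EYFP and -6.29 ± 0.33 in EGFP, and Cyp2c55 had -5.25 ± 0.21 in EYFP and -7.37 ± 0.26 in EGFP.

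Cyp2c67 (chromosome 19, 39608844 to 39649079) had another pattern. It stood at 3.57 and 7.88 CPM in EYFP, 0.319 and 0.330 CPM in EGFP, and 0.421 and 0.882 CPM in WT, so that EYFP alone was raised. Its log2 fold change was 4.0 ± 0.66 for EYFP over EGFP (adjusted p = 0.0034; 3.32 without EYFP replicate 2) and 3.06 ± 0.58 for EYFP over WT (adjusted p = 0.0025; 2.39 without EYFP replicate 2 and 3.75 without WT replicate 2), while EGFP over WT was -0.94 ± 0.75 and did not pass. Its close copy Cyp2c68 (39688836 to 39741101) stood at 42.5 and 74.6 CPM in EYFP, 38.4 and 70.9 CPM in EGFP, and 130 and 142 CPM in WT. The EYFP and EGFP libraries of Cyp2c68 overlapped, with a log2 fold change of 0.09 ± 0.36 (adjusted p = 0.86). Cyp2c67 shared the most windows with Cyp2c40 (40%), which had 3.84 counts in EYFP replicate 1 and 0 in every other library. The part that the division of shared reads has in the Cyp2c67 difference was not tested. Cyp2c68 over WT was -1.22 ± 0.36 in EYFP and -1.32 ± 0.36 in EGFP; the first call did not hold without EYFP replicate 1 (adjusted p = 0.092), WT replicate 1 (0.0787) or 2 (0.105), and the second without EGFP replicate 1 (-0.84, adjusted p = 0.14), WT replicate 1 (0.086) or 2 (0.12), and both without the low-count filter.

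Cyp2c29 and Cyp2c38 were close to 0 in reporter cells. Cyp2c29 stood at 0 and 0.336 CPM in EYFP, 0.362 and 0 CPM in EGFP, and 30.4 and 23.7 CPM in WT. It was 178-fold lower in EGFP than in WT (95% counting interval 60.6 to 864, from 3 counts in EGFP), or at least 105-fold lower without EGFP replicate 1 and 73.3-fold lower without EGFP replicate 2 (interval 25.0 to 356). For EYFP over WT its log2 fold change was -7.36 ± 0.80, or -6.28 when EYFP replicate 1 was left out; when EYFP replicate 2 was left out the gene was at least 125-fold lower. Cyp2c38 had 5.86 and 5 counts in EYFP, 0 and 0 in EGFP, and 35.98 and 23 in WT. It was at least 2.79-fold higher in EYFP than in EGFP and at least 13.8-fold lower in EGFP than in WT (9.3-fold without WT replicate 1). Its call for EYFP over EGFP (adjusted p = 0.039) was lost without EYFP replicate 1 (0.11) or 2 (0.099), EGFP replicate 1 (0.12; at least 1.64-fold) or 2 (0.13; at least 1.15-fold), or WT replicate 1 (0.053). Cyp2c38 over WT in EYFP, -2.33 ± 0.64, lost its call without EYFP replicate 1 (0.088) or 2 (0.082), WT replicate 1 (-1.70, 0.14) or in the DESeq2 Wald test. Cyp2c44 also fell, to 0.352 and 0.168 CPM in EYFP and 0.241 and 0.169 CPM in EGFP, against 3.66 and 7.05 CPM in WT (log2 fold change -4.29 ± 0.60 and -4.68 ± 0.66; 33.5-fold lower in EYFP without replicate 1, counting interval 9.12 to 279).

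**Figure D3:**
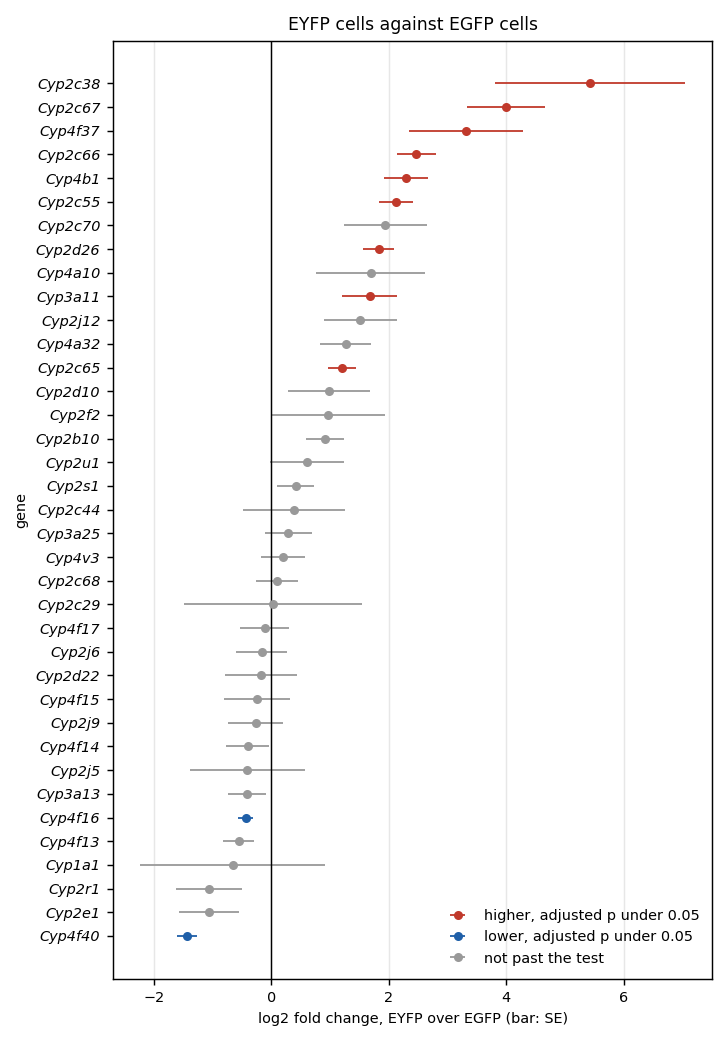
Log2 fold change of EYFP over EGFP cells for the 37 tested members, points with SE bars, in red where higher and in blue where lower at an edgeR adjusted p under 0.05, in grey otherwise. Of the 9 red points 5 are Cyp2c genes, which make up 9 of the 37 tested members. The point of Cyp2c38, which had 0 counts in EGFP, is a fitted value and not a bound.

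Cyp2d26 and Cyp2d22 are members of the Cyp2d cluster on chromosome 15, where human CYP2D6 is known for drug metabolism. Cyp2d26 (82790107 to 82794452) stood at 110 and 102 CPM in EYFP, 23.7 and 35.6 CPM in EGFP, and 422 and 639 CPM in WT, again with WT highest, EYFP between and no overlap. Its log2 fold change was 1.83 ± 0.26 for EYFP over EGFP (adjusted p = 0.0022), -2.32 ± 0.26 for EYFP over WT and -4.16 ± 0.29 for EGFP over WT, and all 3 calls held in every alternative. Cyp2d22 stood at 1.60 and 5.93 CPM in EYFP, 3.06 and 5.20 CPM in EGFP, and 48.0 and 68.5 CPM in WT. The reporter groups overlapped for Cyp2d22 (-0.17 ± 0.62, adjusted p = 0.85), and both were below WT (-3.96 ± 0.59 in EYFP, or -3.28 and -5.16 without EYFP replicates 1 and 2, and -3.79 ± 0.59 in EGFP).

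The Cyp2j genes of chromosome 4, whose products form epoxides of arachidonic acid, divided into members lower and members higher than in WT. Cyp2j6, the most abundant of them, stood at 34.6 and 93.2 CPM in EYFP, 66.4 and 76.6 CPM in EGFP, and 264 and 266 CPM in WT. It was -2.06 ± 0.44 for EYFP over WT (adjusted p = 0.0083; -2.94 without EYFP replicate 2; adjusted p = 0.053 without the low-count filter) and -1.89 ± 0.44 for EGFP over WT (adjusted p = 0.017), and the EGFP call did not hold without EGFP replicate 1 (adjusted p = 0.11) or 2 (0.086), WT replicate 1 (0.073) or 2 (0.083), or without the filter.

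Cyp2j5 and Cyp2j12 were near 0 in WT. Cyp2j5, best known from mouse kidney (96627432 to 96664171), stood at 2.04 and 20.6 CPM in EYFP, 10.6 and 19 CPM in EGFP, and 0.25 and 0.301 CPM in WT. The EYFP libraries lay far apart and enclosed both EGFP libraries. It was 5.28 ± 1.42 higher in EYFP than in WT on the log2 scale (adjusted p = 0.024; 6.16 and 2.83 without EYFP replicates 1 and 2) and 5.69 ± 1.42 higher in EGFP than in WT (adjusted p = 0.027). The EYFP call did not hold without WT replicate 1 (adjusted p = 0.13) or 2 (0.14), the EGFP call without EGFP replicate 1 (0.053) or 2 (0.094) or WT replicate 1 (0.14) or 2 (0.16), and both without the low-count filter. Cyp2j12 (96099316 to 96141152) stood at 4.01 and 9.50 CPM in EYFP, 1.21 and 3.38 CPM in EGFP, and 0 and 0.0603 CPM in WT, which held 1 count. Its level was 186-fold higher in EYFP than in WT (95% counting interval 33.0 to 7405) and 71.1-fold higher in EGFP than in WT (12.2 to 2862; adjusted p = 0.0045). The first ratio was 115 without EYFP replicate 2, 108 without WT replicate 1 and at least 26.1 without WT replicate 2; the second was 96.7 and 34.5 without EGFP replicates 1 and 2, 41.2 without WT replicate 1 and at least 9.95 without WT replicate 2. Cyp2j12 over EGFP in EYFP was 1.52 ± 0.62 and did not pass (adjusted p = 0.096). Cyp2j9 stood at 2.46 and 5.72 CPM in EYFP, 3.98 and 5.74 CPM in EGFP, and 8.41 and 5.48 CPM in WT, with overlapping groups.

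Several subfamilies of family 2 had a single gene. Cyp2s1, a P450 of epithelia outside the liver (chromosome 7), stood at 99.5 and 68.3 CPM in EYFP, 43.6 and 82.0 CPM in EGFP, and 120 and 131 CPM in WT. All 4 reporter libraries were below both WT libraries, and the EYFP and EGFP libraries overlapped. It passed only for EGFP over WT (-1.0 ± 0.32, adjusted p = 0.046), a difference that did not pass without EGFP replicate 1 (-0.51, adjusted p = 0.16), WT replicate 1 (0.11) or 2 (0.17),, with DESeq2 size factors, without the low-count filter and in the fit to the EGFP and WT libraries alone. Cyp2e1, which oxidizes ethanol, stood at 1.84 and 2.28 CPM in EYFP, 6.51 and 2.21 CPM in EGFP, and 9.35 and 9.78 CPM in WT, and was lower in EYFP than in WT (-2.22 ± 0.49, adjusted p = 0.0055). Cyp2f2, known from the club cells of mouse lung, stood at 4.01 and 8.57 CPM in EYFP, 0.362 and 5.83 CPM in EGFP, and 0.333 and 0.663 CPM in WT. It was 3.59 ± 1.14 higher in EYFP than in WT (adjusted p = 0.034), a call lost without EYFP replicate 1 (0.052) or 2 (2.94, 0.12), WT replicate 1 (0.15) or 2 (4.19, 0.12), or the low-count filter. Cyp2r1, a vitamin D 25-hydroxylase, stood at 0.563 and 0.504 CPM in EYFP, 1.45 and 0.845 CPM in EGFP, and 1.33 and 1.27 CPM in WT. Cyp2u1, a fatty acid hydroxylase, stood at 4.72 and 5.63 CPM in EYFP, 2.89 and 3.80 CPM in EGFP, and 3.66 and 14.7 CPM in WT.

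Cyp4b1, a P450 that acts on fatty acids and on plant toxins (chromosome 4 from 115624698 to 115647721), had the highest level of all members in EYFP cells. It stood at 443 and 296 CPM in EYFP, 69.2 and 81.2 CPM in EGFP, and 87.0 and 176 CPM in WT. Both EYFP libraries were above the other 4, and both EGFP libraries were below WT. It was 4.91-fold higher in EYFP than in EGFP (log2 fold change 2.30 ± 0.37, adjusted p = 0.0056), a call that held in every alternative. Cyp4b1 was 1.49 ± 0.36 higher in EYFP than in WT (adjusted p = 0.012; 2.08 without WT replicate 2), and lost this call without EYFP replicate 1 (1.17, adjusted p = 0.053). EGFP over WT was -0.81 ± 0.36 and did not pass (adjusted p = 0.13).

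The Cyp4f genes, whose products hydroxylate leukotrienes and long-chain fatty acids at the last carbon, were mostly lower in reporter cells. Of 7 tested, 5 were lower in EYFP than in WT and 6 in EGFP than in WT, with none higher. For all tested genes the shares were 33.5% lower and 27.1% higher in EYFP, and 21.9% lower and 19.6% higher in EGFP. The 9 genes summed to 82.0 and 108 CPM in EYFP, 122 and 150 CPM in EGFP, and 1248 and 1933 CPM in WT. Cyp4f14, a leukotriene B4 hydroxylase (chromosome 17 from 32903357 to 32917376), made up most of the WT sum. It stood at 20.1 and 34.2 CPM in EYFP, 29.5 and 42.0 CPM in EGFP, and 887 and 1529.7 CPM in WT, and fell by 5.48 ± 0.43 for EYFP over WT (adjusted p = 6.1e-05) and by 5.07 ± 0.42 for EGFP over WT (adjusted p = 0.00018). The reporter groups overlapped (-0.40 ± 0.36, adjusted p = 0.42).

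Cyp4f40 and Cyp4f16 were the members lower in EYFP than in EGFP. Cyp4f40 (32658886 to 32676919) stood at 5.74 and 6.22 CPM in EYFP, 17.8 and 14.8 CPM in EGFP, and 90.1 and 96.4 CPM in WT, with EYFP lowest and no overlap. Its log2 fold change was -1.43 ± 0.17 for EYFP over EGFP (adjusted p = 0.00097, held in every alternative), -3.96 ± 0.17 for EYFP over WT and -2.52 ± 0.16 for EGFP over WT. Cyp4f16 stood at 27.8 and 31.0 CPM in EYFP, 38.2 and 41.4 CPM in EGFP, and 202 and 205 CPM in WT. Against WT it was -2.79 ± 0.14 in EYFP and -2.35 ± 0.14 in EGFP, but its difference between EYFP and EGFP, -0.44 ± 0.13 (adjusted p = 0.037), was lost without EYFP replicate 1 (0.21) or 2 (0.091), without EGFP replicate 1 (0.14) or 2 (0.17), with DESeq2 size factors (-0.37, adjusted p = 0.0661), in the DESeq2 Wald test (0.0847) and without the low-count filter (0.0505).

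Cyp4f13 stood at 22.9 and 31.0 CPM in EYFP, 32.8 and 46.3 CPM in EGFP, and 63.2 and 93.5 CPM in WT. It was -1.54 ± 0.26 for EYFP over WT (adjusted p = 0.0019) and -0.99 ± 0.26 for EGFP over WT (adjusted p = 0.02), and the EGFP difference no longer passed without EGFP replicate 1 (0.158) or WT replicate 2 (0.105). Cyp4f15 was called lower in EYFP (-1.82 ± 0.52) and in EGFP (-1.58 ± 0.53) than in WT at 0.744 to 4.54 CPM. The EYFP call was lost without EYFP replicate 1 (0.099) or WT replicate 2 (0.077), and the EGFP call, which ranged from -0.98 to -2.50 without EGFP replicates 1 and 2, was lost without EGFP replicate 1 or any of the EYFP or WT libraries (adjusted p from 0.053 to 0.23), with DESeq2 size factors (0.0522), in the DESeq2 Wald test (0.0634) and in the fit to the EGFP and WT libraries alone (0.0632). Cyp4f37 had 1.79 counts in EGFP, beside 28.5 in EYFP, a ratio of 12.3 with a 95% counting interval of 2.83 to 96.8, and 24.8 in WT, a ratio of 9.75 (2.19 to 76.6). Its calls for EYFP over EGFP (adjusted p = 0.032) and EGFP over WT (adjusted p = 0.047) were lost without any EYFP or EGFP library, and the second also without either WT library, with DESeq2 size factors (0.0517) and in the DESeq2 Wald test (0.0941); without EGFP replicate 1 the ratios were 7.23 and 5.73, without EGFP replicate 2 at least 3.02 and 2.40, and the second was 6.02 without WT replicate 2. Cyp4f39, too low to test, had 0 and 0 counts in EYFP, 10 and 7 in EGFP, and 5 and 10 in WT.

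Cyp4v3, whose human counterpart hydroxylates fatty acids (chromosome 8 from 45305801 to 45333163), stood at 46.0 and 67.8 CPM in EYFP, 38.4 and 60.6 CPM in EGFP, and 479 and 902 CPM in WT. It was -3.60 ± 0.41 for EYFP over WT and -3.80 ± 0.42 for EGFP over WT, with overlapping reporter groups (0.20 ± 0.38, adjusted p = 0.72). Cyp4a10, a fatty acid hydroxylase and a known target of the receptor Ppara, stood at 0.433 and 1.24 CPM in EYFP, 0.157 and 0.345 CPM in EGFP, and 31.3 and 14.9 CPM in WT. Its log2 fold change was -4.80 ± 0.59 for EYFP over WT (-4.18 and -5.74 without EYFP replicates 1 and 2, -4.16 without WT replicate 1) and -6.49 ± 0.72 for EGFP over WT (139-fold lower without EGFP replicate 2, counting interval 32.4 to 7159, and -5.87 without WT replicate 1). Cyp4a32, which shares windows with Cyp4a10, stood at 5.75 and 3.72 CPM in EYFP, 1.77 and 2.11 CPM in EGFP, and 2.64 and 1.68 CPM in WT. It was 1.14 ± 0.42 higher in EYFP than in WT (adjusted p = 0.048), a call lost without EYFP replicate 1 (0.78, 0.25), EGFP replicate 2 (0.064) or WT replicate 2 (0.83, 0.198). Cyp4a12a, Cyp4a12b, Cyp4a14, Cyp4a29 and Cyp4a30b were at 0 in all 6 libraries, as were Cyp2a22, Cyp2b19, Cyp2b23, Cyp2c50, Cyp2c54, Cyp2g1, Cyp3a41b and Cyp3a57.

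**Figure D4:**
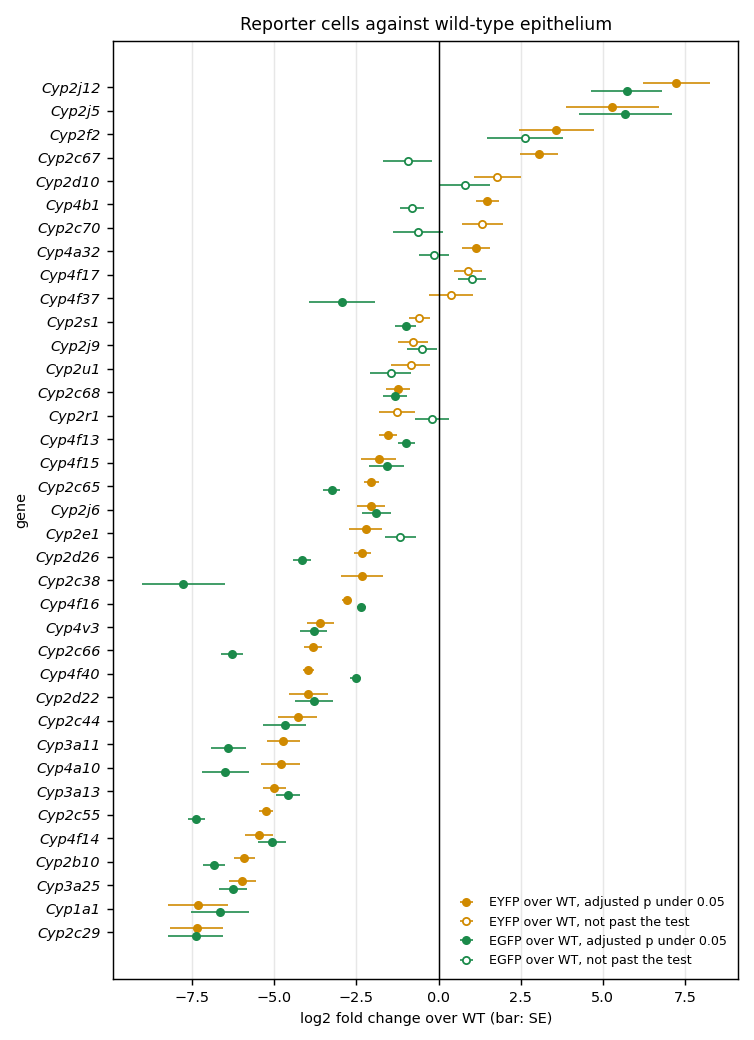
Log2 fold change of EYFP over WT (orange, upper point) and EGFP over WT (green, lower point) for the 37 tested members with SE bars, filled where the edgeR adjusted p is under 0.05. Most points lie left of 0. Cyp2j12, Cyp2j5, Cyp2f2, Cyp2d10 and Cyp4f17 lie right of 0 for both groups, and of these only Cyp2j12 and Cyp2j5 are filled for both. Points of genes with 0 to 3 counts in a group (Cyp2c38, Cyp2c29, Cyp2j12 and Cyp4f37) are fitted values and not bounds.

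Electron donors and other partners of P450s were also mostly lower in reporter cells. Of 6 measured, 5 were lower in EYFP than in WT and 6 in EGFP than in WT, with none higher, and medians of -1.32 and -1.55. Over all tested genes, 33.5% were lower and 27.1% higher in EYFP, and 21.9% lower and 19.6% higher in EGFP. Por, the reductase that all these P450s need, stood at 221 and 206 CPM in EYFP, 91.1 and 116 CPM in EGFP, and 236 and 249 CPM in WT. The EYFP level of Por was close to that of WT (-0.19, not past the test) and 1.04 higher on the log2 scale than in EGFP. Cyb5r3, a cytochrome b5 reductase, and Pgrmc1, a heme-binding partner, were also higher in EYFP than in EGFP, by 0.76 and 0.51, whereas Cyb5a, cytochrome b5 itself, was lower (-0.71). Against WT the largest changes were of Cyb5a in EYFP (-2.51) and Cyb5r3 in EGFP (-2.49).

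Of 10 genes of heme synthesis and breakdown, 5 were lower and 1 higher in EYFP than in WT. In EGFP, 3 were lower and 0 higher than in WT. Among all tested genes, 33.5% were lower and 27.1% higher in EYFP, and 21.9% lower and 19.6% higher in EGFP. Alas1, the first enzyme of heme synthesis, stood at 79.1 and 65.2 CPM in EYFP, 80.4 and 87.2 CPM in EGFP, and 187 and 184 CPM in WT (-1.36 and -1.14 over WT). Fech, which inserts the iron into heme, was lower in EYFP than in EGFP (-0.55), and no gene of the list was higher. Both epoxide hydrolases were lower in EYFP and in EGFP than in WT; Ephx2, which hydrolyses fatty acid epoxides, stood at 17.9 and 32.0 CPM in EYFP, 22.5 and 34.6 CPM in EGFP, and 569 and 716 CPM in WT (-4.69 and -4.48).

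Of 16 receptors and factors known to regulate P450 genes, 12 were lower and 0 higher in EYFP than in WT. In EGFP, 14 were lower and 0 higher than in WT. The shares over all tested genes were 33.5% lower and 27.1% higher in EYFP, and 21.9% lower and 19.6% higher in EGFP. Nr1i3, the receptor CAR, had the largest change, at 1.91 and 3.17 CPM in EYFP, 4.15 and 4.55 CPM in EGFP, and 59.6 and 102 CPM in WT (-5.00 and -4.22). Nr1i2, the receptor PXR, stood at 28.9 and 39.9 CPM in EYFP, 38.7 and 45.5 CPM in EGFP, and 120 and 134 CPM in WT. Ppara stood at 18.8 and 32.5 CPM in EYFP, 27.7 and 28.3 CPM in EGFP, and 91.2 and 87.1 CPM in WT. Over WT, the changes in EYFP and EGFP were -1.89 and -1.59 for Nr1i2 and -1.80 and -1.67 for Ppara. The part of the receptors in the P450 differences was not tested.

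Ahr stood at 6.62 and 7.15 CPM in EYFP, 11.4 and 7.86 CPM in EGFP, and 31.5 and 24.6 CPM in WT, while Vdr, the vitamin D receptor, stood at 345 and 279 CPM in EYFP, 238 and 271 CPM in EGFP, and 757 and 735 CPM in WT. Between EYFP and EGFP cells, Tiparp, a target of Ahr, was the only gene of this list to be higher (1.06), and Hnf4a, Rxra, Nr5a2 and Nfe2l2 were lower. Hnf4a, a factor that keeps epithelial and liver genes active, stood at 490 and 459 CPM in EYFP, 743 and 718 CPM in EGFP, and 984 and 954 CPM in WT (-0.62 for EYFP over EGFP).

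**Figure D5:**
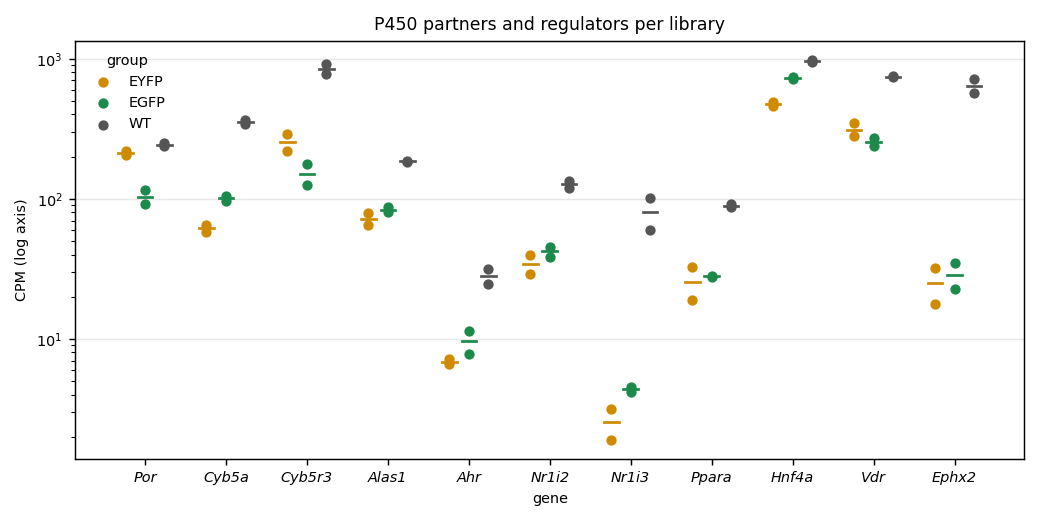
CPM of 11 partners and regulators of P450s in each library on a log axis, points for libraries and bars for the mean of the 2, with EYFP left, EGFP in the middle and WT right. The WT points lie above all reporter points for every gene shown; for Por the EYFP points (221 and 206) lie close to WT.

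P450 genes of families above 4, of which 4 of 20 were tested, moved in both directions. Cyp27a1, the mitochondrial sterol hydroxylase, stood at 2.11 and 5.46 CPM in EYFP, 4.82 and 8.79 CPM in EGFP, and 27.1 and 74.3 CPM in WT, and was lower in both reporter groups than in WT (-3.76 and -2.88). Cyp51, which takes part in cholesterol synthesis, stood at 65.9 and 63.7 CPM in EYFP, 162 and 135 CPM in EGFP, and 77.3 and 66.5 CPM in WT, so that EGFP alone was raised (-1.20 for EYFP over EGFP and 1.05 for EGFP over WT). Cyp20a1, a P450 of unknown function, was higher than in WT in EYFP (1.25) and in EGFP (1.76), and Cyp39a1, an oxysterol hydroxylase, was lower in EYFP than in WT (-1.17).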

How the data were processed

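RNA was measured in 6 libraries, 2 per group. Per the labels' protocols, RNA was extracted with an RNeasy Micro kit and sequenced as single-end reads of 50 bases on a HiSeq2000. The mm10 build and the tools RSEM 1.3.1, Bowtie2, FastQC 0.11.8 and DESeq2 1.26.0 are named per the submitters' processing notes, with no role or setting. The table that the authors deposited holds estimated counts, in fractions where a read shared by several genes was divided. A deposited table of the authors' own comparisons was not used.

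Counts were rounded, filtered with filterByExpr (13935 of 23845 genes kept, 58.4%) and scaled by TMM. They were tested with edgeR 4.0.16 (quasi-likelihood F test, robust) in 1 model of 3 group means with 3 residual degrees of freedom, adjusted by Benjamini-Hochberg over all genes at 0.05. Genes varied by 19.8% between replicates (edgeR's biological coefficient of variation). The SE was derived from the F value. The procedure was tested on simulated data. CPM are counts over the TMM-scaled total, means of 2 libraries. For a group at 0, folds are bounds against 3 counts over that group; with 1 to 3 counts, they have an exact 95% interval (Clopper-Pearson). Coordinates are from RefSeq (GRCm38.p6, the assembly of mm10; 80 members matched); 78 members matched GENCODE transcripts. Values in every library are given for members with a group mean of at least 5 CPM and 9 members fixed by name; others are named where they pass a test, are at 0 throughout or illustrate a low count. The result of 1 gene of the pathway lists is not reported here. The members, lists and alternatives were chosen with earlier results of these data known. Alternatives were DESeq2 size factors, no filter, a minimum of 10 counts, the DESeq2 Wald test (version 1.42.0), fits to 4 libraries, a block for the replicate number, and each library left out.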

Additional observations from a re-analysis of the deposited data

How the results depend on the processing

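The counts of members lower or higher than in WT stayed within 1.5 times their value under the DESeq2 size factors, both other filters, the DESeq2 Wald test and the fits to 4 libraries. The number lower in EYFP than in EGFP fell to 1 with DESeq2 size factors and to 1 in the DESeq2 Wald test, against 2, where Cyp4f16 dropped out; it ranged from 1 to 5 with single libraries left out, and the number higher in EGFP than in WT from 1 to 3. Of the calls, 7 of the 11 for EYFP over EGFP, 21 of 29 for EYFP over WT and 19 of 26 for EGFP over WT held in every alternative and with each library left out. DESeq2 size factors moved the median of all genes for EYFP over WT by 0.115 on the log2 scale.

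Differences that had not passed between EYFP and EGFP changed sign with a library left out. Their log2 fold changes ranged from -4.72 to 0.41 for Cyp1a1, from -4.03 to 4.21 for Cyp2c29, from -0.24 to 0.78 for Cyp2c44, from -0.37 to 0.60 for Cyp2c68, from -1.38 to 0.51 for Cyp2d22 and from -2.86 to 0.47 for Cyp2j5. The range was -1.05 to 0.38 for Cyp2j6, -0.99 to 0.22 for Cyp2j9, -1.05 to 0.03 for Cyp3a13, -0.48 to 0.82 for Cyp3a25 and -0.12 to 0.56 for Cyp4v3. For Cyp2f2 in EGFP over WT it was -0.49 to 3.59, and for Cyp2u1 in EYFP over WT -1.51 to 0.49. Fits that leave a group at 0 counts (Cyp1a1 and Cyp2c29) give fitted values, not bounds. The cause was not tested. Members below about 10 counts in a library are limited by depth.

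Deviations of same-numbered libraries correlated weakly (0.084 for EYFP and EGFP, 0.02 for EYFP and WT, 0.15 for EGFP and WT). The main model did not pair these libraries. With 2 libraries per group, such correlations cannot exclude that libraries of the same number were prepared together. With the replicate number as a block, the members higher and lower numbered 9 and 3 for EYFP over EGFP, 6 and 23 for EYFP over WT, and 3 and 22 for EGFP over WT. Under the block Cyp3a11 for EYFP over EGFP (adjusted p = 0.0523) and, for EGFP over WT, Cyp2s1 (0.074) and Cyp4f37 (0.0623) did not pass, while Cyp2j12 (0.0215) and Cyp4f13 (0.0169) for EYFP over EGFP and Cyp2f2 (0.0473) for EGFP over WT did.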
